A study of Mus musculus with 18 samples.

Results

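Genes of bile acid synthesis, conjugation, uptake and export, with 2 of their nuclear receptors, were followed through the livers of mouse offspring whose dams had eaten a high protein diet. The 10 genes were Cyp7a1, Cyp8b1, Cyp27a1, Cyp39a1, Cyp46a1, Nr0b2, Nr1h4, Slc10a1, Abcb11 and Baat, and every probe set that the platform annotation assigns to one of them was taken, 14 of 45101 probe sets in all. Each of the 10 genes had at least 1 probe set above the filter on dim signals and was tested among 11018 genes. The mice belonged to DUK, an outbred line bred from 4 outbred and 4 inbred lines. Their dams ate isoenergetic diets with 20% protein by weight throughout pregnancy and lactation (control), or 40% protein in pregnancy (HP pregnancy) or in lactation (HP lactation). Livers were taken at postnatal day 21 or 150, which gives 6 groups of 3 Affymetrix mouse genome arrays, 18 in all, with replicates numbered 4 to 6 in the HP lactation group of day 150 and 1 to 3 elsewhere. Every array carried RNA pooled from several livers, 1 animal per litter, and the labels differ on how many animals a pool held and do not say whether 2 pools can share an animal. The p-values measure how pools vary, which may be less than how animals vary. The sex of the animals is not given in the sources used here.

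Bile acids are made from cholesterol in hepatocytes. In the classic pathway Cyp7a1 takes the first, rate-limiting step and Cyp8b1 decides how much of the product becomes cholic acid; the alternative pathway starts with side-chain hydroxylation by Cyp27a1. Baat couples the finished acids to taurine or glycine, Abcb11 pumps them into bile and Slc10a1 takes them up again from portal blood. Bile acids bind the receptor Nr1h4 (FXR), which induces Nr0b2 (SHP), a repressor of synthesis.

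RefSeq promoter windows (build GRCm38.p6) were found for 7 of the 10 genes, Cyp8b1, Cyp27a1, Cyp46a1, Nr0b2, Nr1h4, Slc10a1 and Abcb11. Printed here are the 250 bases before each annotated start of the genes whose signal differed between groups, on the strand of the gene. They lie at chr9:121916306-121916555 for Cyp8b1 (minus strand), chr1:74713285-74713534 for Cyp27a1 (plus), chr12:108334066-108334315 for Cyp46a1 (plus), and, for the 2 annotated starts of Slc10a1, chr12:80968706-80968955 and chr12:80968080-80968329 (both minus). Capitals mark matches to 5 short motifs, searched on both strands and chosen after the sequences were seen.
Cyp8b1: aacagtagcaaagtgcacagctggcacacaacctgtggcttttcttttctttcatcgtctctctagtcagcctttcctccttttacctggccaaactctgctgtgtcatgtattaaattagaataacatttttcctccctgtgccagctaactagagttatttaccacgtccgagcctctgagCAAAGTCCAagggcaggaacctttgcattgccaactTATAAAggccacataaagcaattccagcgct
Cyp27a1: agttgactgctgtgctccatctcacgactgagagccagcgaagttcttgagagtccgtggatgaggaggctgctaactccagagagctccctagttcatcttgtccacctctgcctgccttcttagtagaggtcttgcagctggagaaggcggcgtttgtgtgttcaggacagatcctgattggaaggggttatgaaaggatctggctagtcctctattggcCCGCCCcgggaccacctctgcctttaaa
Cyp46a1: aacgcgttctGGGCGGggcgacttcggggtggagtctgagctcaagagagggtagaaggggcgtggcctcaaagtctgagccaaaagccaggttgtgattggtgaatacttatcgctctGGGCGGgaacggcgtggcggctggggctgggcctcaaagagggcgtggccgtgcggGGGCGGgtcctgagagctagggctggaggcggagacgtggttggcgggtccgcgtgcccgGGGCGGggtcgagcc
Slc10a1, first start: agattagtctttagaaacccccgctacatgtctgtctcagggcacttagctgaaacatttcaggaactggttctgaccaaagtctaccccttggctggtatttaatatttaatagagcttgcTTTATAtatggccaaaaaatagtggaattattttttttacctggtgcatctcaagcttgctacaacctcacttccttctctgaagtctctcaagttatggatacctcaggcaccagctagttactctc
Slc10a1, second start: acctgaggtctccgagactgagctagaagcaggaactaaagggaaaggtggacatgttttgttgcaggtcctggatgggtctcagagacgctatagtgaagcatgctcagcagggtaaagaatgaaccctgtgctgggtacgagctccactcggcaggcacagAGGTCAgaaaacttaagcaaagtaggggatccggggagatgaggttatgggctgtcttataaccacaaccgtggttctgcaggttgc
The Cyp8b1 window holds CAAAGTCCA, a hepatocyte nuclear factor 4 type element, from position -67 to -59 before the start, and TATAAA from -31 to -26. CAAAGTCCA occurs in 0.384% of the 32851 windows searched (126 windows), and TATAAA in 12.4%. Cyp46a1 has 4 GC boxes (GGGCGG, found in 32.7% of windows) and a GC content of 67.6%, against a median of 52.4% over all windows. Cyp27a1 has 1 GC box on the opposite strand. The nuclear receptor half-site AGGTCA (14% of windows) lies before the second Slc10a1 start, and also in the Abcb11 and Nr1h4 windows. Nr0b2 has 2 copies of TCAAGG, the core of liver receptor homolog 1 sites (12.5% of windows). These are matches of letters, not measured binding.

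Signals are given on the linear scale of the arrays, on which every array had a trimmed mean of 500.004 to 500.005. Changes are differences of mean log2 signal with their standard error (SE), a group mean is a geometric mean, and a gene is said to rise or fall where limma's adjusted p (Benjamini-Hochberg over all 11018 genes) was under 0.05. The SE is estimated from the spread within all 6 groups. Control arrays are shared by both diet comparisons of a day, so those comparisons are not independent. Levels of different probe sets are not comparable with each other. Among the liver markers, all 6 hepatocyte genes measured were above the filter, at a summed signal of 121370 to 242035. Of the cholangiocyte list, the keratins Krt19 and Krt7 were below the filter, while Epcam and Sox9 were above it (mean signal 76.5 and 103). Xist, the RNA that coats the inactive X, stood out on 2 arrays, control day 21 replicate 2 (2026) and HP lactation day 150 replicate 4 (5080), with at most 35.3 on the others for the same probe set. The Y-linked gene Eif2s3y read 1431 and 1990 on these 2 arrays, below the other 16, so they carried RNA of both genes. The fits of the members, by the probe set tested among genes, were repeated without both arrays. Their values are given where a call was lost or gained or a change described here moved by over 1.5 times. Beyond these, only the second Slc10a1 probe set and the other pathway genes called between diets were refitted in this way. No such check was made on the age changes of the other pathway genes or on the dimmer probe sets of Cyp7a1 and Baat. In whole liver, fewer cells of a type and less RNA per cell cannot be told apart.

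**Figure D1:**
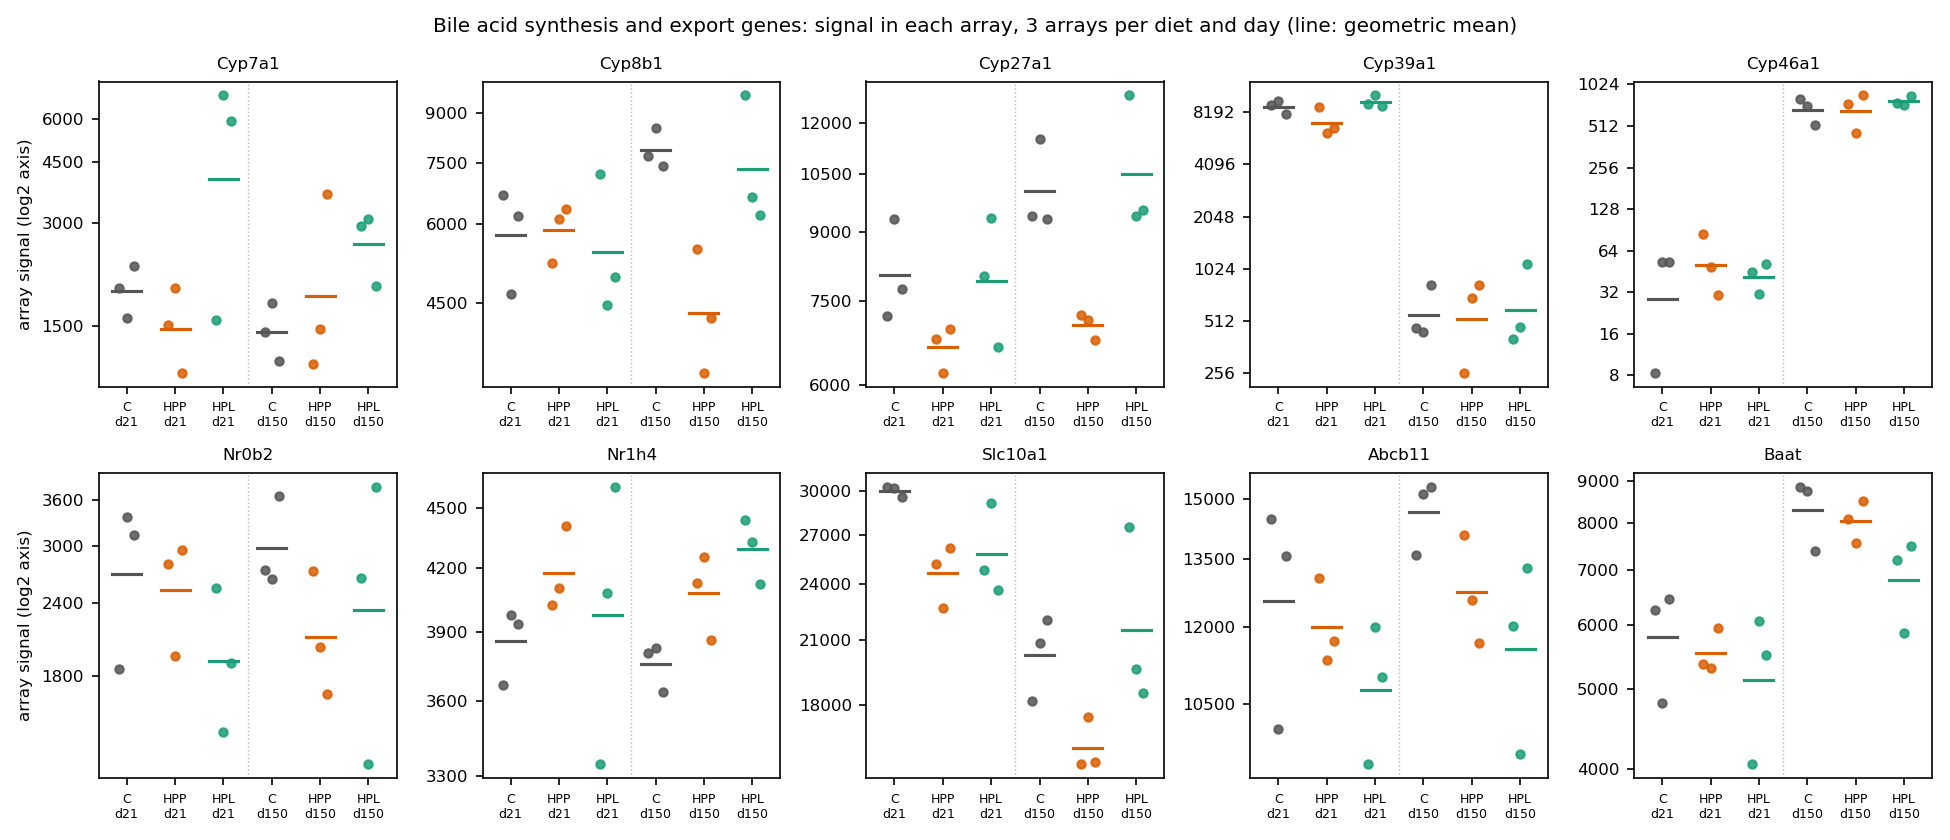
Signal of each member on every array, by diet (C, control; HPP, HP pregnancy; HPL, HP lactation) and postnatal day (d21, d150), on log2 axes; points are arrays and lines geometric means. Cyp39a1 and Cyp46a1 separate the days completely, and Cyp8b1 is low on the 3 HP pregnancy arrays of day 150.

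The question put to the diet comparisons was whether a high protein diet of the dam left a mark on these genes in the offspring. At day 150, Cyp8b1 fell after HP pregnancy, and it was the only member called in any comparison of a diet with control. Its probe set (1449309_at) read 7692, 8523 and 7414 in the control livers of day 150, and 5473.5, 3489 and 4261 after HP pregnancy. All 3 HP pregnancy arrays lay below all 3 controls. The mean was 4333 against 7863, a 1.81-fold lower signal (log2 change -0.86, SE 0.20, adjusted p = 0.0347 by limma). The 1 member called of 10 is read against the 2.63% of all genes called in this comparison, with 1.11% called lower. That share rested on single arrays too: 2 to 162 genes (0.0182% to 1.47%) were called with 1 of the 6 arrays left out, the fewest without HP pregnancy replicate 2, in place of 290. The Cyp8b1 call was lost on leaving out any control array (adjusted p = 0.102, 0.106 and 0.0745 without replicate 1, 2 and 3) or HP pregnancy replicate 2 or 3 (0.18 and 0.0855), while the change stayed between -1.03 and -0.70. After HP lactation the day 150 signals were 9592, 6624.5 and 6213, on both sides of the control values (log2 change -0.10, SE 0.20, adjusted p = 0.933). The highest of these was replicate 4, an array with Xist signal; the other 2 lay below every control, and without the arrays with Xist signal the change was -0.29 (adjusted p = 0.688). Set against HP lactation, HP pregnancy differed by -0.76 (SE 0.20, adjusted p = 0.0738), which did not pass, again without overlap, and by -0.57 (adjusted p = 0.28) without the arrays with Xist signal.

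At day 21 the same probe set showed no such gap. Control arrays gave 6668, 4645 and 6190, HP pregnancy arrays 5215, 6121 and 6346, and HP lactation arrays 7192, 4465 and 4948, so all 3 groups overlapped. The HP pregnancy change was 0.03 (SE 0.20), or -0.13 (adjusted p = 0.937) without the arrays with Xist signal. The difference between the day 150 and the day 21 change was -0.89 (SE 0.28, unadjusted p = 0.0054), with an adjusted p of 0.999 by limma over all genes, so the change at day 150 is not shown to differ from that at day 21. In order of the mean, the groups ran from HP pregnancy at day 150 (4333), through HP lactation (5417), control (5766) and HP pregnancy (5873) at day 21, to HP lactation (7336) and control (7863) at day 150. In that order the arrays of every pair of neighbouring groups overlapped.

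Cyp27a1, the mitochondrial sterol 27-hydroxylase, had its lowest day 150 signals on the same 3 arrays. Probe set 1417590_at gave 9396.5, 11503.5 and 9306 in control, 7219, 7137 and 6762.5 after HP pregnancy, and 12910, 9375 and 9535 after HP lactation. HP pregnancy arrays lay below every array of the other diets. The log2 change against control was -0.51 (SE 0.14, adjusted p = 0.0631) and that against HP lactation -0.58 (SE 0.14, adjusted p = 0.0644), so neither passed. Both passed after quantile normalization (adjusted p = 0.0404 and 0.0254), the first also with the compared arrays alone (0.0362) and the second without HP lactation replicate 5 (0.0414). Without the arrays with Xist signal, of which HP lactation replicate 4 (12910) was the highest, the second was -0.43 (adjusted p = 0.25). At day 21 control arrays read 7207, 9304 and 7746, HP pregnancy arrays 6779, 6198 and 6968, and HP lactation arrays 8015, 9324 and 6629. There too the HP pregnancy arrays lay below the controls (log2 change -0.28, SE 0.14, adjusted p = 0.533; -0.17 and 0.863 without control replicate 2, an array with Xist signal, and HP lactation day 150 replicate 4). The gene's other probe set (1457665_x_at) was between 0.9 and 40.2 on all 18 arrays, below the filter signal of 57.5, and carries no comparison.

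Slc10a1, the sodium-dependent bile acid uptake transporter of the sinusoidal membrane, has 2 probe sets that both passed the filter and moved together (Pearson r 0.94 over 18 arrays, a description only). On 1424898_at, the brighter one and the one tested among genes, day 150 signals were 18176, 20873 and 22046 in control, 15637, 17519 and 15717.5 after HP pregnancy, and 27534, 19601 and 18549 after HP lactation. The change after HP pregnancy was -0.32 (SE 0.13, adjusted p = 0.174), with no overlap of the 3 and 3 arrays. On 1450261_a_at the control values were 9245, 9554 and 10256, the HP pregnancy values 6390, 7043 and 6159, and the HP lactation values 12958, 9418 and 9710. Again the HP pregnancy arrays were the lowest 3. With every kept probe set as its own row, this probe set fell after HP pregnancy (log2 change -0.57, SE 0.12, adjusted p = 0.0373) and was lower than after HP lactation (-0.70, SE 0.12, adjusted p = 0.0326). In that fit 1.35% and 0.548% of 19349 probe sets were called in those comparisons. The second call was lost without the arrays with Xist signal, of which HP lactation replicate 4 (12958) was the highest here (-0.55, SE 0.11, adjusted p = 0.128). The size and the call of the Slc10a1 difference thus depend on the probe set, and the sequences the probes bind were not used here. Single arrays were not left out in turn for 1450261_a_at, so whether its call against control rests on 1 array was not tested.

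**Figure D2:**
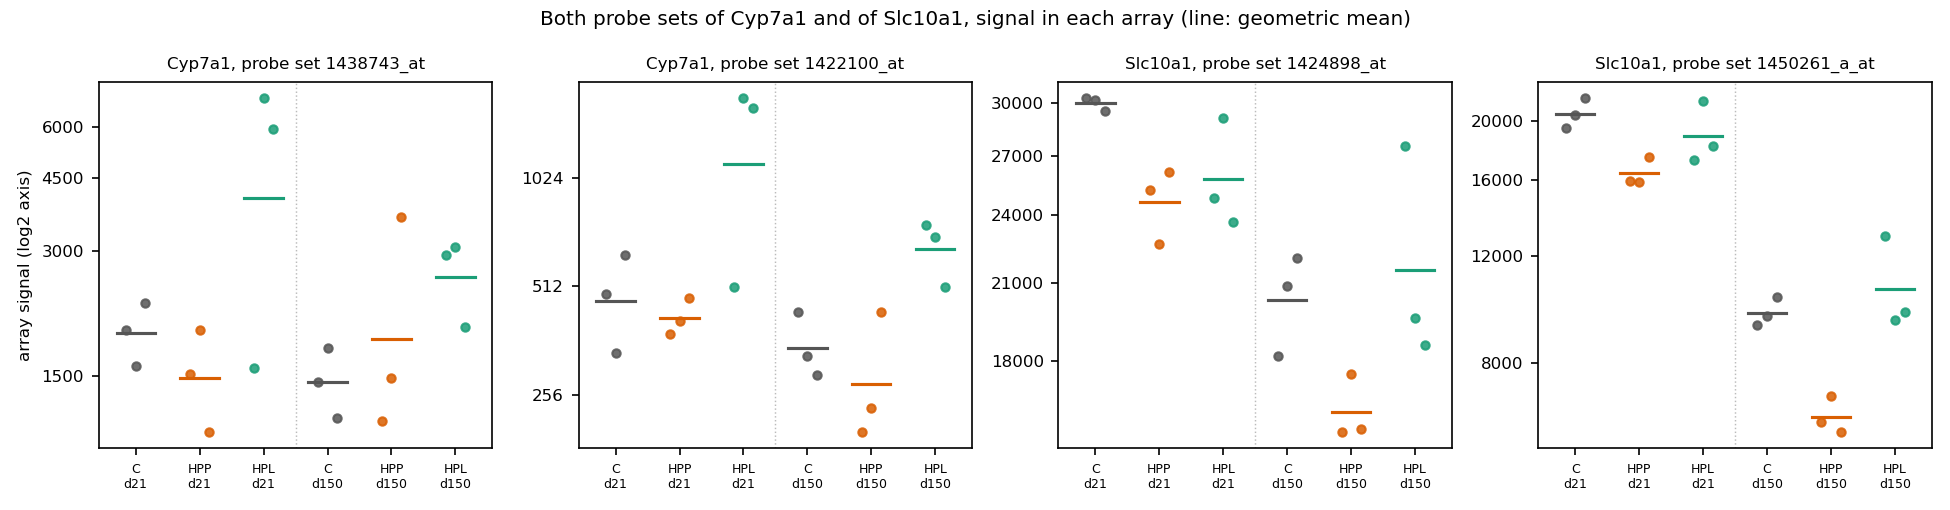
Signal of both probe sets of Cyp7a1 and of Slc10a1 on each array, on log2 axes, by diet and day as labelled; lines are geometric means. Both Slc10a1 probe sets put the HP pregnancy arrays of day 150 lowest, and both Cyp7a1 probe sets put 2 of the 3 HP lactation arrays of day 21 highest.

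Cyp7a1, the rate-limiting enzyme, had the second largest SE of the 10 members, 0.44, after Cyp46a1 (0.52). Its brighter probe set (1438743_at) read 1938, 1586 and 2244 in control at day 21, 1517, 1936 and 1098 after HP pregnancy, and 1568, 7034 and 5932 after HP lactation. Thus 2 HP lactation arrays were above every other array of the series and the third lay just below the control range. The mean after HP lactation was 4029 against 1903 (log2 change 1.08, SE 0.44, 95% interval 0.16 to 2.01, adjusted p = 0.285), which did not pass. Set against HP pregnancy, the other high protein group of that day, the difference was -1.45 (SE 0.44, adjusted p = 0.12); without HP lactation replicate 1 it was -2.13 (adjusted p = 0.0094), which is past the threshold. Probe set 1422100_at gave 488, 334 and 627 in control, 377.5, 410 and 475 after HP pregnancy, and 511, 1705 and 1603 after HP lactation at day 21. Its changes were 1.26 (SE 0.37, adjusted p = 0.155) against control and -1.42 (SE 0.37, adjusted p = 0.0826) for HP pregnancy against HP lactation, again not called.

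At day 150, Cyp7a1 on 1438743_at was 1449, 1752.5 and 1187 in control, 1163, 1477 and 3630 after HP pregnancy, and 2936, 3070 and 1961 after HP lactation. HP lactation arrays all lay above the controls, while 1 HP pregnancy array (3630) was the highest of the day. The HP lactation change was 0.85 (SE 0.44, adjusted p = 0.673). The other probe set gave 435, 327 and 290 in control, 202, 235 and 435 after HP pregnancy, and 760, 701 and 511 after HP lactation, with a change of 0.91 (SE 0.37, adjusted p = 0.539). For HP pregnancy the probe sets differed in sign, 0.35 (SE 0.44) and -0.33 (SE 0.37), and neither was called. No direction is given for that comparison.

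The receptor Nr1h4 and its target Nr0b2 were not called in any comparison. Nr1h4 (1419105_at) stayed between 3345 and 4613 on all 18 arrays. At day 150 it read 3804, 3829 and 3639 in control, 4126, 4253 and 3866 after HP pregnancy, and 4442, 4326 and 4123 after HP lactation, so both diets lay above control without overlap. The changes were 0.12 (SE 0.11, adjusted p = 0.59) and 0.19 (SE 0.11, 95% interval -0.04 to 0.42, adjusted p = 0.709). Nr0b2 (1449854_at) ranged from 1272 to 3792, and both of these extremes were HP lactation arrays of day 150. Its change after HP pregnancy at day 150 was -0.50 (SE 0.32, 95% interval -1.18 to 0.17, adjusted p = 0.412). The change after HP lactation at day 21 was -0.50 (SE 0.32, adjusted p = 0.504; -0.33 without the arrays with Xist signal), with overlapping arrays in both. Both Nr0b2 intervals include a fall as large as that of Cyp8b1.

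Abcb11, the canalicular bile salt export pump, and Baat, the conjugating enzyme, were not called for any diet either. Abcb11 (1449817_at) gave 13597, 15132 and 15317 in control at day 150, 14090, 12586 and 11670 after HP pregnancy, and 12014.5, 9616 and 13307 after HP lactation. The HP lactation arrays lay below the controls (log2 change -0.35, SE 0.14, unadjusted p = 0.0274, adjusted p = 0.564). Baat (1419002_s_at) read 8850, 8737 and 7387 in control at day 150, 8079, 7554 and 8501 after HP pregnancy, and 7201, 5864 and 7489 after HP lactation. Its HP lactation change was -0.28 (SE 0.15, adjusted p = 0.676), with overlapping arrays.

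Counted over the 10 members, the other diet comparisons held no call. After HP pregnancy at day 21 limma called 0 members and 0% of all genes, with 1 member (Slc10a1, -0.28, SE 0.13) and 1100 genes at an unadjusted p under 0.05. After HP lactation it called 0 members at day 21, where 0.172% of genes passed, and 0 at day 150, where 0.00908% passed. In each, 1 member had an unadjusted p under 0.05, Cyp7a1 and Abcb11, beside 1578 genes at day 21 and 851 at day 150. Between the 2 high protein groups limma called 0 members at day 21 (1.28% of genes) and 0 at day 150 (0.717% of genes). There 1 and 3 members had an unadjusted p under 0.05, beside 1646 genes at day 21 and 1916 at day 150. The member arrays did not overlap for 4 of 10 genes in HP pregnancy against control at day 150, where 27.9% of all genes did not overlap, and for 3 of 10 in the same comparison at day 21 (18.2% of all genes). For HP lactation they did not overlap for 1 of 10 at day 21 (16.1% of genes) and 3 of 10 at day 150 (13.7%), and between the high protein groups for 1 of 10 at day 21 (20.9%) and 4 of 10 at day 150 (22.9%). The median member change after HP pregnancy at day 150 was -0.14, beside 0.003 over all genes. For the difference between day 150 and day 21 changes, limma called 0 members for HP pregnancy and 0 for HP lactation, where 0.0182% of genes passed each. Here 1 member (Cyp8b1) and 0 members had an unadjusted p under 0.05, beside 426 genes for HP pregnancy and 562 for HP lactation.

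**Figure D3:**
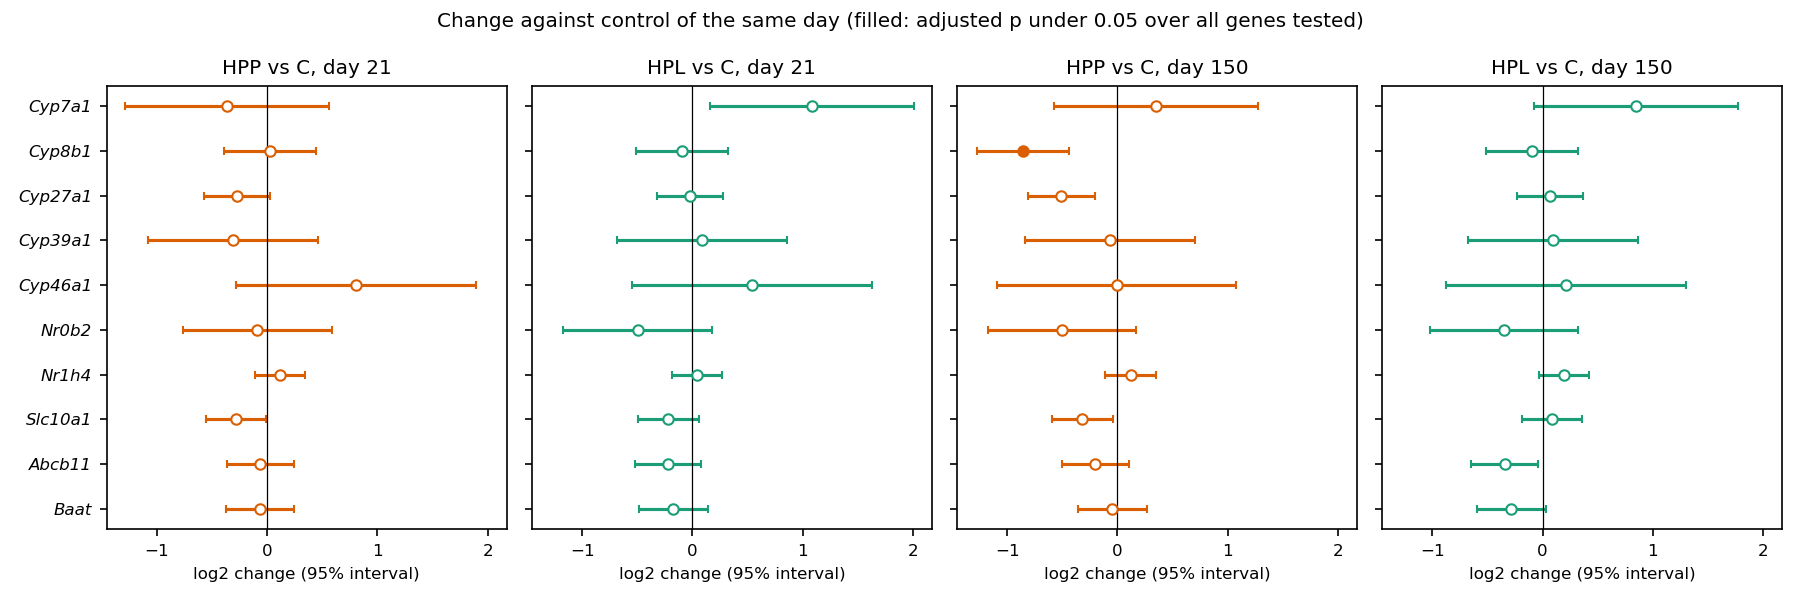
Log2 change of each member against control of the same day, with 95% intervals from the fit; filled points have an adjusted p under 0.05. Cyp8b1 after HP pregnancy at day 150 (-0.86) is the one filled point.

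Among the marker lists, only that of lymphocytes separated HP pregnancy from control at day 150. The summed signal of the lymphocyte list was 1331 to 1459 after HP pregnancy and 964 to 1219 in control, without overlap, although Cd3e and Cd79a were below the filter and Ptprc alone passed. This sum was above control at day 21 as well, after HP pregnancy (753 to 1042 against 515 to 610) and after HP lactation (625 to 684). Hepatocyte marker sums overlapped at day 150 (145827 to 180329 against 155817 to 195059), and so did those of Kupffer cells (13290 to 13518 against 11013 to 15227). At day 21 the hepatocyte sums lay below control (166860 to 173883) after HP pregnancy (121370 to 154197) and after HP lactation (125752 to 165411). The 99th percentile of signal was also lower after HP pregnancy at day 21 (15701 to 17018 against 17713 to 19913). What part these values have in the Cyp8b1, Cyp27a1 and Slc10a1 results was not tested.

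The age comparisons asked how the same genes differed between day 150 and day 21 under each diet. Here 4 of the 10 members changed in control offspring, where 17.8% of all genes did: Cyp46a1 and Baat rose, and Cyp39a1 and Slc10a1 fell. The same 4 were called after HP pregnancy (23.6% of genes), and 3 after HP lactation (25.7% of genes), namely Cyp39a1, Cyp46a1 and Cyp27a1. Cyp46a1 reached the filter only through its day 150 arrays, as its day 21 group means were 28.5, 49.9 and 41.4, below 57.5. It thus entered these counts through the day on which it is high. Member arrays of the 2 days did not overlap for 6, 4 and 3 of 10 genes, beside 35.2%, 43.9% and 37.2% of all genes.

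Cyp39a1, the 7-alpha-hydroxylase of 24-hydroxycholesterol, fell more than any other member. Probe set 1418780_at read 8964, 9526 and 8016 in control at day 21 and 466.6, 440 and 826 at day 150. After HP pregnancy the values were 8730, 6204 and 6652 at day 21 and 256, 695 and 823 at day 150. In the HP lactation group they were 9088, 10252 and 8843 at day 21 and 401, 470 and 1094 at day 150. The lowest of the 9 day 21 arrays was 5.67 times the highest of the 9 day 150 arrays. Means fell 15.9-fold in control (log2 change -3.99, SE 0.37, adjusted p = 7.9e-07 by limma), 13.5-fold after HP pregnancy (-3.75, SE 0.37) and 15.9-fold after HP lactation (-3.99, SE 0.37). Within a day the diets overlapped with control, and the age change differed between diet groups by 0.24 (SE 0.52) for HP pregnancy and 0.00 (SE 0.52) for HP lactation, with an adjusted p of 0.999 in both by limma. Without the 2 arrays with Xist signal the fall was -3.94 in control and -3.71 after HP lactation, and the HP lactation difference 0.23 (adjusted p = 0.998).

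Cyp46a1, the cholesterol 24-hydroxylase best known from neurons, went the other way. Probe set 1417709_at read 8.3, 53.2 and 52.5 in control at day 21, 84, 48.5 and 30.5 after HP pregnancy, and 44.8, 31.2 and 50.8 after HP lactation. At day 150 it read 799, 710.5 and 516.5 in control, 736, 458 and 853 after HP pregnancy, and 756, 723 and 838 after HP lactation. All 9 day 150 arrays lay above all 9 day 21 arrays, the lowest of them 5.45 times the highest day 21 value. Because 8 of the 9 day 21 values were below the filter signal of 57.5, the size of the change depends on what is added before the log: the log2 change in control was 4.54 (SE 0.52, adjusted p = 1e-05) with 0 added and 3.07 with 50 added. After HP pregnancy these were 3.73 and 2.80, and after HP lactation 4.22 and 3.16, all past the threshold. The neuron markers Snap25 (mean signal 7.14) and Tubb3 (12.2) were below the filter. Summed over the 4 neuron markers the signal was 509 to 787 at day 21 and 838 to 1060 at day 150, without overlap, and was carried by Syt1 and Rbfox3. Whether this sum bears on Cyp46a1 was not tested.

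Slc10a1 fell with age. At day 21 probe set 1424898_at gave 30264.5, 30158 and 29513 in control, 25215, 22676 and 26165 after HP pregnancy, and 24835.5, 29124 and 23662 after HP lactation. All control and HP pregnancy arrays of day 21 lay above the day 150 arrays of their diet listed earlier. The fall was -0.56 in control (SE 0.13, adjusted p = 0.0064) and -0.60 after HP pregnancy (SE 0.13, adjusted p = 0.003). After HP lactation it was -0.26 (SE 0.13, adjusted p = 0.159), not called, with HP lactation day 150 replicate 4 (27534), 1 of the 2 arrays with Xist signal, within the day 21 range. Without those 2 arrays the HP lactation change was -0.43 and passed (adjusted p = 0.0117). On 1450261_a_at day 21 signals were 19493, 20459 and 21843 in control, 15947, 15900 and 17502 after HP pregnancy, and 17265.5, 21602 and 18210 after HP lactation. This probe set fell in all 3 diets, by 1.09 (SE 0.12), 1.33 (SE 0.12) and 0.84 (SE 0.12) on the log2 scale, in fits where 14.9%, 21.6% and 23.2% of probe sets were called. The smaller of these is still larger than any of the 3 changes on the brighter probe set.

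Baat rose from 6256, 4809 and 6458 to the day 150 control values of 7387 to 8850 (log2 change 0.52, SE 0.15, adjusted p = 0.0219). After HP pregnancy it rose from 5366, 5315 and 5945 by 0.54 (SE 0.15, adjusted p = 0.0135; 0.0537 without day 21 replicate 2). The HP lactation livers of day 21 read 4046, 6067 and 5512, and their change of 0.41 (SE 0.15, adjusted p = 0.0506) did not pass. The control rise was lost without the day 21 array with Xist signal, replicate 2 (0.38, adjusted p = 0.113), and without day 150 replicate 1 or 2 (adjusted p = 0.0756 and 0.081). A second, dimmer probe set (1419001_at, 715 to 2063 over all arrays) had changes of 0.34, 0.32 and 0.32 (SE 0.25 each) in the 3 diets, none called, and followed the first with Pearson r 0.57 over 18 arrays.

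Cyp27a1 rose with age after HP lactation (log2 change 0.41, SE 0.14, adjusted p = 0.0452), from the day 21 and to the day 150 values given above, which did not overlap. Without HP lactation day 150 replicate 4, the array with Xist signal and the highest Cyp27a1 signal of the series, the change was 0.26 (adjusted p = 0.216). The call was lost too without HP lactation day 21 replicate 1 (0.42, adjusted p = 0.0857) or replicate 3 (0.28, adjusted p = 0.191). In control the change was 0.32 (SE 0.14, adjusted p = 0.14), and 0.42 (adjusted p = 0.0451) without the 2 arrays with Xist signal. After HP pregnancy it was 0.08 (SE 0.14). For Cyp8b1 the age change was 0.45 under the control diet, 0.44 with HP in lactation and -0.44 with HP in pregnancy (SE 0.20 each), with adjusted p of 0.131, 0.114 and 0.12, so none passed. Without the arrays with Xist signal the first was 0.29 (adjusted p = 0.346) and the second 0.24 (adjusted p = 0.386), while without HP lactation day 21 replicate 1 the second was 0.64 and passed (adjusted p = 0.0315). Cyp7a1, Nr0b2, Nr1h4 and Abcb11 were not called for age in any diet group with all arrays. Leaving out the same HP lactation array of day 21, which had the lowest Cyp7a1 signal of its group, moved the age change of Cyp7a1 from -0.63 to -1.31, past the threshold (adjusted p = 0.0151). Abcb11 at day 21 read 14496, 10048 and 13588 in control, 13078, 11320 and 11701 after HP pregnancy, and 9445, 11990 and 10999 after HP lactation, and its age changes lay between 0.09 and 0.22 (SE 0.14). The control value, 0.22, was 0.06 without the arrays with Xist signal, of which control replicate 2 (10048) was the lowest of its group. Nr1h4 had the narrowest intervals: its age change in control was -0.04 (95% interval -0.27 to 0.19), or -0.02 without the arrays with Xist signal.

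The ratio of the 3' to the 5' control probe sets of Gapdh, a sign of RNA integrity and labelling, was higher at day 150 (group means 1.48 to 1.75) than at day 21 (0.843 to 0.942). Within day 150 this ratio was 1.30, 1.79 and 1.35 in control and 1.77, 1.67 and 1.80 after HP pregnancy, with overlapping arrays. After HP lactation it was 1.73, 1.76 and 1.55. The same ratio for Actb was 1.96 to 3.15 at day 21 and 4.06 to 6.50 at day 150, without overlap. Within day 150 the Actb ratio was 4.06 to 6.38 in control and 6.07 to 6.50 after HP pregnancy. The part of both ratios in the diet results of day 150, and in the age results, was not tested. The stellate cell list also moved with age, from 8310 to 14610 in control at day 21 to 4509 to 7868 at day 150. Kupffer cell markers went the other way, from 6881 to 8440 in control at day 21 to 11013 to 15227 at day 150, and so did the lymphocyte list, from 515 to 610 to 964 to 1219. For these 3 lists the days did not overlap in any diet group. The erythroid sum was higher at day 150 without overlap in both high protein groups (196 to 308 against 596 to 1265, and 260 to 305 against 422 to 929), while the control arrays overlapped. Their part in the age results was not tested.

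**Figure D4:**
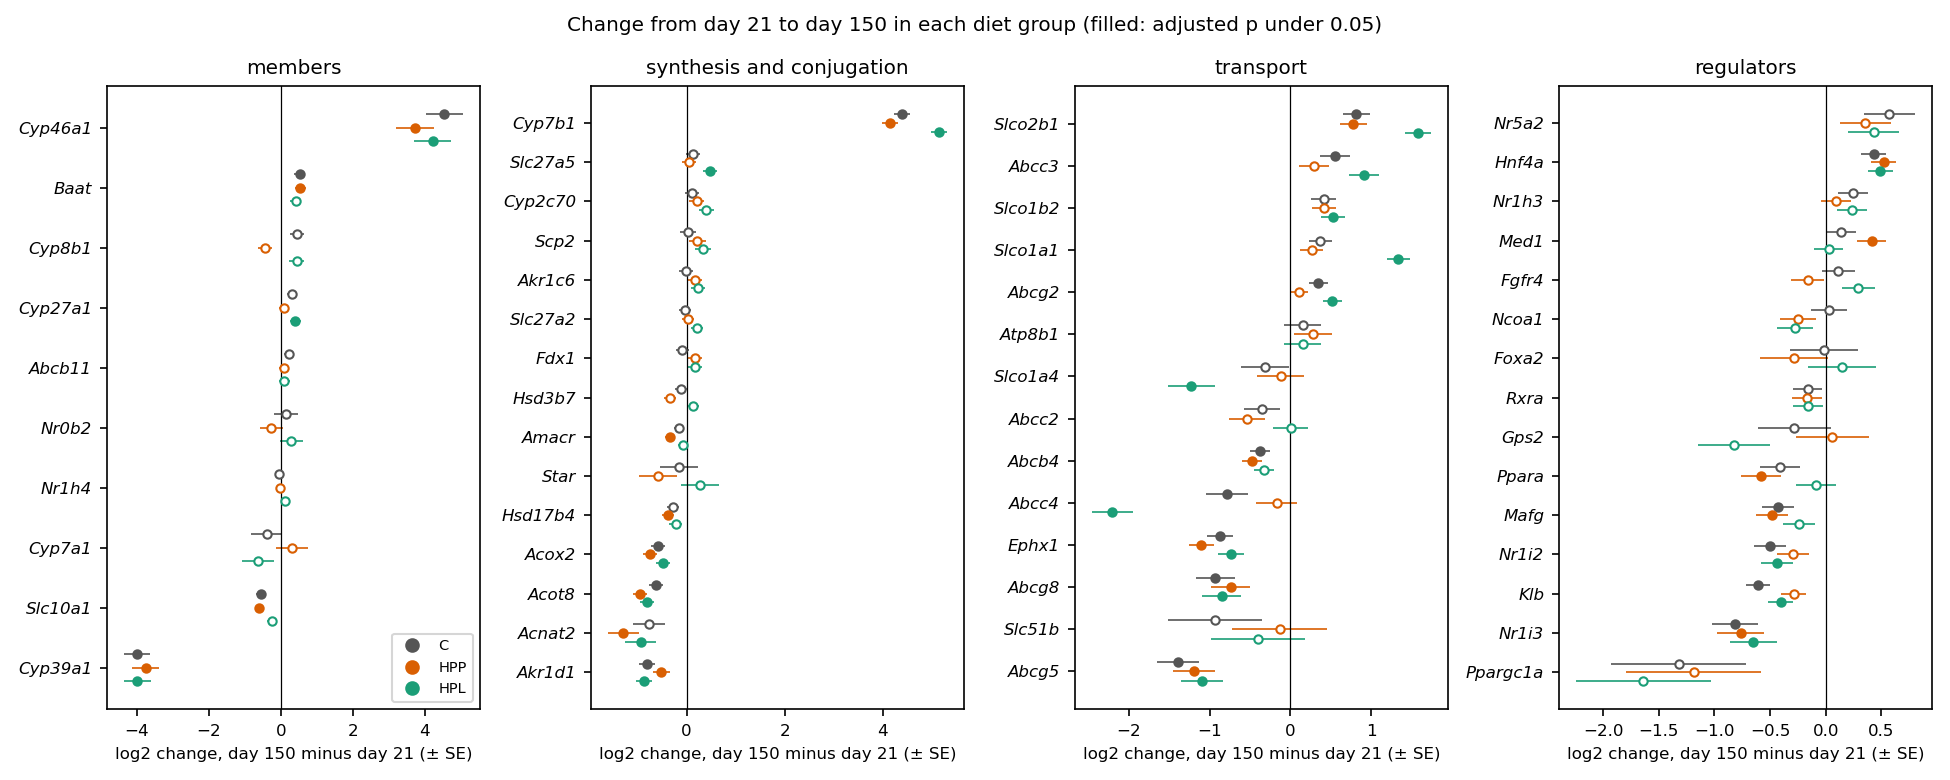
Log2 change from day 21 to day 150 with its SE for the members and for the other genes of the pathway, by diet group; filled points have an adjusted p under 0.05. Cyp39a1 (-3.99 in control) and Cyp46a1 (4.54) lie far from the other members, as does Cyp7b1 (4.40) among the other genes.

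Other genes of the pathway were taken from lists of synthesis and conjugation, transport, and regulation, of which 44 of 51 were tested (15 of 19, 14 of 15 and 15 of 17). After HP pregnancy at day 150, 1 of the 44 was called, Acnat2, an acyl-CoA:amino acid N-acyltransferase related to Baat. It read 2847, 2093 and 1334 in control and 857, 895 and 652 after HP pregnancy (log2 change -1.33, SE 0.32, adjusted p = 0.0381), without overlap. This 1 gene of 44 stands beside the 2.63% of all genes called. Acnat2 lost its call on leaving out any of the 6 arrays but control replicate 3 (adjusted p = 0.0566 to 0.154 in these 5 fits, log2 change -1.42 to -1.07). Over the 44 genes the median change was -0.10 and 15 changes were positive, beside a median of 0.003 over all genes. Acnat2 read 1523, 605.5 and 1962 after HP lactation at day 150, which includes its lowest array of that day. At day 21 it read 3387, 3570 and 3226 in control, 2456, 1518 and 1959 after HP pregnancy, and 2333, 2263 and 2377 after HP lactation. Both high protein groups lay below control there without overlap, and neither was called.

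After HP lactation at day 21, 2 of the 44 were called, both transporters, where 0.172% of all genes passed. Slco1a1, an organic anion uptake transporter, read 12842, 11246 and 12161 in control and 4946, 7496 and 5972 after HP lactation (log2 change -0.996, SE 0.14, adjusted p = 0.0035). Abcc4, a basolateral efflux pump that can carry bile acids, read 169, 264 and 174 in control and 551, 686 and 515 after HP lactation (1.55, SE 0.25, adjusted p = 0.0103). In neither gene did the groups overlap. The Abcc4 call was lost without control replicate 1 (1.44, adjusted p = 0.0764), and both genes passed without the arrays with Xist signal. Against HP pregnancy at day 21, where 1.28% of all genes passed, the same pair was called (1.36, SE 0.14, and -1.77, SE 0.25, for HP pregnancy minus HP lactation), with Cyp7b1, the oxysterol 7-alpha-hydroxylase of the alternative pathway, as the third (1.04, SE 0.16, adjusted p = 0.0028). Cyp7b1 read 1731, 1414 and 1455 after HP pregnancy and 647, 958 and 655.5 after HP lactation. No other gene of the 44 was called in the comparisons between diets, where limma found 0 for HP pregnancy against control at day 21, 0 for HP lactation against control at day 150 and 0 between the high protein groups at day 150.

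With age, Cyp7b1 rose 21.1-fold in control, from 1190, 1079 and 1436 to 22295, 29873.5 and 25934 (log2 change 4.40, SE 0.16, adjusted p = 2e-12). After HP pregnancy it rose by 4.14 and after HP lactation by 5.15 (SE 0.16 each), and the lowest day 150 array was 12.9 times the highest day 21 array. In control 5 of the 44 rose and 12 fell. The counts were 4 and 13 in the HP pregnancy group and 8 and 12 in the HP lactation group, beside, in this order, 9.7% and 8.08%, 12.1% and 11.5%, and 14.1% and 11.6% of all genes. Falling genes in control included Akr1d1, the 5-beta-reductase of bile acid synthesis (-0.80, SE 0.16), Abcg5, 1 of the 2 subunits of the canalicular sterol exporter (-1.39, SE 0.26), Ephx1, microsomal epoxide hydrolase (-0.87, SE 0.16), and Klb, the co-receptor for the intestinal hormone that restrains Cyp7a1 (-0.61, SE 0.11). Slco2b1, an organic anion transporter, rose by 0.82 (SE 0.16). Hnf4a, a hepatocyte transcription factor, rose in all 3 diet groups (0.43 in control, 0.52 with HP in pregnancy and 0.49 with HP in lactation, SE 0.11 each; adjusted p = 0.0124, 0.0026 and 0.0036). Its highest signal, 15322, was on HP lactation day 150 replicate 4, an array with Xist signal. The median age change of the 44 was -0.15 in control, beside 0.02 over all genes.

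Genes other than the members whose log2 signal was most like that of a member over the 18 arrays are given for some members as a description. For Cyp39a1 they were Tff3 (Pearson r 0.98), Psat1 (0.97) and Lpl (0.97), but within the 9 arrays of day 21 these were 0.50, -0.49 and 0.02, and within day 150 0.54, 0.55 and 0.55. For Cyp46a1 they were Obp2a, Hspb1 and Meg3 (0.95 each), with 0.81, 0.20 and 0.65 within day 21 and -0.34, -0.14 and -0.07 within day 150. For Cyp8b1 they were Tdrd7 (0.82), Sec14l2 (0.81) and Atg7 (0.81), with 0.86, 0.97 and 0.92 within day 150 and 0.68, 0.21 and 0.62 within day 21. Slc10a1 was most like Hrg (0.97), Rps4x (0.94) and Bdh1 (0.93), with 0.97, 0.94 and 0.94 within day 150 and 0.85, 0.92 and 0.59 within day 21. Cyp27a1 was most like Slc27a5 (0.88), itself on the synthesis and conjugation list, Saraf (0.88) and Sec14l4 (0.86). Within day 150 these were 0.93, 0.87 and 0.87, and within day 21 0.65, 0.90 and 0.69. The arrays share a scaling to one trimmed mean, and the 9 arrays of a day hold 3 diet groups.

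Between members, 90 correlations within a day were computed over 9 arrays each, and none passed an adjusted p of 0.05 in an exact permutation test; the smallest adjusted p was 0.0557. It belonged to Cyp8b1 with Cyp27a1 and to Cyp27a1 with Slc10a1 at day 150, where the 3 HP pregnancy arrays stand apart from the other 6, so no pooled coefficient is given for them. At day 21 the closest pair was Abcb11 with Baat (Pearson r 0.849, Spearman rho 0.85, adjusted p = 0.0846 and 0.249 by exact permutation, r 0.73 without the 2 arrays farthest from the Abcb11 median).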

How the data were processed

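Liver RNA of 18 pools (6 groups of 3) was measured on 18 single-colour Affymetrix arrays. The authors deposited linear signal intensities, made with MAS5 in GCOS 1.4 per the submitters' processing notes; their trimmed mean (2% cut from each side) shows a common scaling to 500.004 to 500.005. No depth applies to arrays: the number of arrays limits the precision (median SE 0.19 on the log2 scale between 2 groups). Genes were named from the platform annotation: 34945 probe sets name 1 gene, 932 several and 9160 none, and 64 are controls. All 10 members matched RefSeq by gene ID.

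Here log2 was taken with 0 added, 19349 probe sets that name 1 gene and reach the median mean log2 signal of all but the controls (5.85, or 57.5 on the linear scale) were kept, and each gene was represented by its probe set of highest mean. Group means over all arrays were fitted with limma 3.58.1 under R 4.3.3 (lmFit, then contrasts.fit and a trended eBayes; two-sided tests; 12 residual and 6.47 prior degrees of freedom) in 11 comparisons, and p-values were adjusted by Benjamini-Hochberg over the 11018 genes of each. The fit was run on simulated data with independent normal noise on each array, which checks the code and not the calls made here. Figures and exact permutation tests used Python 3.11.15, matplotlib 3.10.9 and scipy 1.17.1.

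The members, marker lists, pathway lists and alternatives were chosen with earlier results of these data known. All members are named; of the other pathway genes, per comparison up to 6 called with the smallest p; and as most alike, the 3 genes with the highest r. Alternatives were no filter, quantile normalization, 50 added, every kept probe set, the compared arrays alone and a replicate block. The others were leaving out the 2 arrays with Xist signal, and leaving out each array. After seeing the data, a refit of the second Slc10a1 probe set without the 2 arrays with Xist signal was added. For the other pathway genes called between diets, leaving out those arrays and each compared array was added as well. Detection calls, scan dates and sampling times are not given in the sources used here.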

Additional observations from a re-analysis of the deposited data

How the results depend on the processing

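Of the 12 called member changes, refitted under 148 settings, 132 stayed past the threshold, 16 did not and 0 changed direction; Cyp39a1, Cyp46a1 and the called Slc10a1 changes passed in all of theirs. Of 1332 settings of changes that were not called, 19 passed. In the setting with every kept probe set, a gene with 2 of them was counted by the one with the smaller p, which favours a call. The number of members called in HP pregnancy against control at day 150 was 1, where 2.63% of all genes were called. It rose to 2 with quantile normalization (Cyp27a1 added, 2.79% of genes) and with the compared arrays alone (Cyp27a1, 4.29%). With every kept probe set it was 2 as well (Slc10a1 added, 1.35% of probe sets). The brighter Slc10a1 probe set was not called in that fit (adjusted p = 0.19 by limma). Between the high protein groups at day 150 the number of members called went from 0 (0.717% of genes) to 2 with quantile normalization (Cyp27a1 and Slc10a1, 1.06%). It was 1 with every kept probe set (Slc10a1, 0.548% of probe sets). For age after HP lactation it went from 3 (25.7% of genes) to 5 with quantile normalization (Slc10a1 and Baat added, 28.2%). It was 4 with 50 added (Baat added, 26.2%) and with every kept probe set (Slc10a1 added, 23.2% of probe sets). It was 2 with no filter (13.9%) and with the compared arrays alone (15.7%), where Cyp27a1 was lost (adjusted p = 0.0717 and 0.153). Leaving out each array in turn gave 0 to 1 members for HP pregnancy against control at day 150 (0.0182% to 1.47% of genes). It gave 0 to 1 for HP pregnancy against HP lactation at day 21 (0.3% to 3.28%) and at day 150 (0.0182% to 2.28%). For age it gave 3 to 4 in control (10.4% to 16%) and after HP pregnancy (14.9% to 22.5%), and 2 to 4 after HP lactation (19.3% to 23.1%). The other comparisons gave 0, with at most 0.717% of genes called. With an array left out, its group of 2 is assumed to vary like the others.

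Same-numbered arrays did not deviate together: the 18 correlations of their deviations from the group means lay between -0.11 and 0.10, with 1 above 0.1. With the replicate number as a block, 0 members were called after HP pregnancy (0% of genes) and HP lactation (0.182%) at day 21 and between them (1.02%). There was 1 after HP pregnancy at day 150 (1.58%), and for age 4 in control (16.9%) and 4 after HP pregnancy (22.8%). These are the same counts as without the block, while the genes called in HP pregnancy against control at day 150 went from 290 to 174. No block could be fitted with the HP lactation group of day 150, which shares no numbers. The median SE of 0.19 between groups, with 3 arrays in each, limits what small changes could be seen.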
